A study of Mus musculus with 13 samples.

Results

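The proteasome is the cell's main protease for proteins tagged with ubiquitin, and 35 of its genes, named one by one in a list of subunits and activators, were followed through every library. All 35 were among the 19838 genes of each count table, and 32 of them had more than 3 reads in at least 1 library. The mice were 88 weeks old, on a mixed FVBxC57BL/6 background, and each library came from the aorta or the gastrocnemius, a calf muscle, by amplifying a short stretch of each targeted transcript. The 4 groups were aorta dNdK (2 libraries), aorta Rosa26 (4), muscle dNdK (3) and muscle Rosa26 (4). Mice called dNdK carried 1 copy of the GFP-FOXM1dNdK transgene and 1 copy of Rosa26-rtTA, the gene of a doxycycline-controlled transactivator. Mice called Rosa26 lacked the FOXM1 transgene and carried Rosa26-rtTA, so that both genotypes held the transactivator. FOXM1 is a transcription factor of the cell cycle, and the label dNdK names the form used here, joined to GFP. The labels name no doxycycline treatment, transgene promoter, sex or sequencing run, and the rtTA gene sits at Rosa26, a locus active in most tissues.

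The core of the proteasome, the 20S particle, is a barrel of stacked rings. The outer rings are built of alpha subunits (Psma genes) and gate the entrance, and the inner rings are built of beta subunits (Psmb genes), of which Psmb5, Psmb6 and Psmb7 encode the cutting sites. The 19S cap unfolds tagged proteins: its base holds the ring of ATPases (Psmc genes) with Psmd1, Psmd2 and the ubiquitin receptor Psmd4. The lid of the cap holds the other Psmd subunits followed here, with the deubiquitinase Psmd14. Interferon replaces the cutting subunits by Psmb8, Psmb9 and Psmb10 and raises the PA28 cap of Psme1 and Psme2, whereas Psme3 forms a nuclear PA28 cap. Psmb10 is thus an inducible immunoproteasome subunit, although it stood in a list described as constitutive and activator genes.

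Library depth ran from 3919526 to 13683952 reads on genes, and the 35 genes together took 0.501% to 0.747% of them. Foxm1 was near the limit of detection, with 2 and 5 reads in aorta dNdK, 3, 24, 13 and 2 reads in aorta Rosa26 and 0 to 3 reads in every muscle library, and whether its amplicon reads the transgene is not stated. Levels are given as CPM, the usual depth-scaled count, on library sizes adjusted by the TMM method. The muscle label held, since Myh4 of fast fibres reached at most 1.89 CPM in aorta and ranged between 33800 and 59580 CPM in muscle. Of 6 tested smooth muscle markers, 3 rose and 1 fell in aorta Rosa26 over muscle Rosa26, where 31% of all genes rose and 27.5% fell. The summed level of the list overlapped, at 179 to 385 CPM in aorta Rosa26 and 255 to 336 CPM in muscle Rosa26. Acta2 stood at 149 ± 69.6 CPM in aorta Rosa26 and 70 ± 16.1 CPM in muscle Rosa26 (SD, n = 4 each). Myh11 overlapped, at 52.5 to 82 CPM in the 6 aortas and 30.1 to 86 CPM in the 7 muscles. The remaining marker, Tagln, had at most 2 reads in any library of either tissue. The brown fat gene Ucp1, in contrast, had a lowest value of 3843 and a highest of 6921 CPM across the aortas. Heart myosin Myh6 stood at 546 CPM in aorta dNdK 2 and at 666 and 274 CPM in aorta Rosa26 1 and 2, and the remaining aortas had no more than 1.45 CPM. For muscle dNdK 3, Adipoq of fat cells stood at 141 CPM, against 0.957 to 9.06 CPM in the other muscle libraries. In bulk tissue, fewer cells of a type and less RNA per cell cannot be told apart.

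A set of 5 libraries stood apart by its reads. Aorta Rosa26 3 and 4 had 7.21% and 7.45% of reads unmapped, against 4.62% to 5.62% in the other aorta libraries. Muscle dNdK 1 and muscle Rosa26 1 and 4 had 6.13%, 6.47% and 5.81%, against 5.18% to 5.58% in the other muscle libraries. No aorta dNdK library was among the 5. Within aorta Rosa26, libraries 3 and 4 were also those without heart RNA, so the splits by unmapped reads and by heart RNA cannot be told apart there. Over 8471 genes, the share of reads on the first strand lay a median of 9.19 to 13.2 percentage points from 50% in the 5 libraries, and 3.3 to 8.28 points in the other 8. For 12 of 32 proteasome genes (37.5%) these strand shares did not overlap between the 5 and the other 8 libraries, against 15.7% of the 8471 genes. The split was chosen after the values were seen, and values without the 5 libraries are given for the counts, the medians and the genes that differed most between the sets.

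Psmd8, a lid subunit, is an example. The first strand held 6.29% to 14.1% of its reads in the 5 libraries and 21.1% to 44.7% in the other 8. As a log2 difference from the other Rosa26 libraries of the tissue, its first-strand level was −3.45 in aorta Rosa26 3 and 4 and −2.41 in muscle Rosa26 1 and 4, while its second-strand level was −0.14 and 0.01. Psma2 had a low first-strand share in the same libraries (5.16% to 21.4%, against 35% to 40.9%), and Psmb6 a high one (78.5% to 87.2%, against 43% to 68%). Psme2 was low on both strands in the set, and its total level was 6.18-fold lower in aorta Rosa26 3 and 4 than in aorta Rosa26 1 and 2, and 6.74-fold lower in muscle Rosa26 1 and 4 than in muscle Rosa26 2 and 3. Of the 32 genes, 1, Psme2, was in both tissues at 0.5 or less of its level in the other Rosa26 libraries (3.12%), against 3.19% of 10254 genes.

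**Figure D1:**
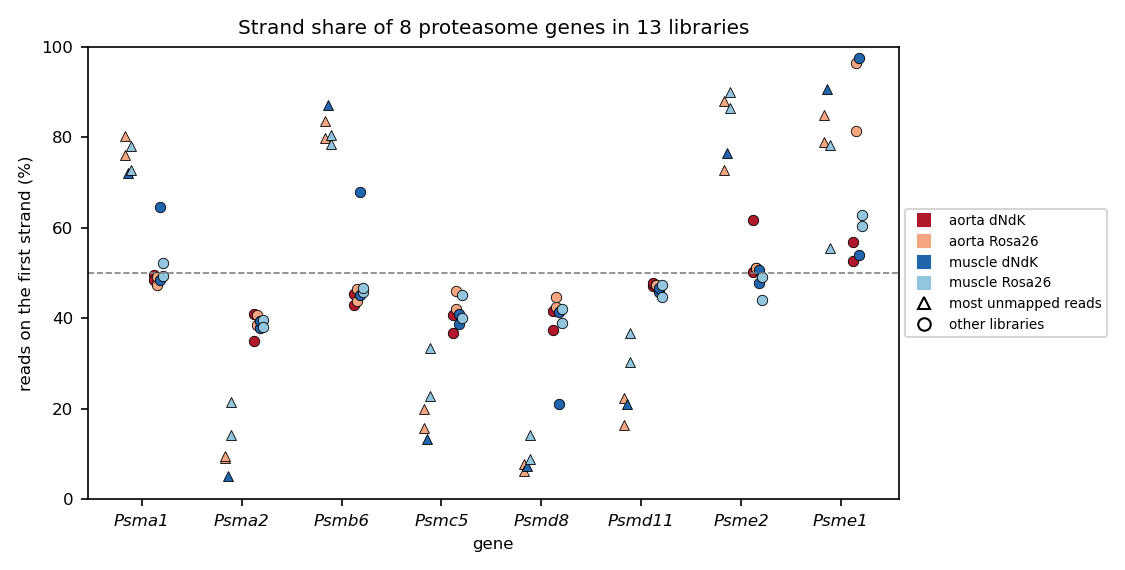
Share of reads on the first strand (y axis, percent) for 8 proteasome genes (x axis) in the 13 libraries, coloured by group, with triangles for the 5 libraries with the most unmapped reads and circles for the other 8. In Psmd8 the triangles lie at 6.29% to 14.1% and the circles at 21.1% to 44.7%, whereas in Psme1 triangles and circles overlap.

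Psma3, Psma5 and Psmb5 were not read. Psma3 had 1 read over all 13 libraries, Psma5 had 0 and Psmb5 had 2, below the floor of 3 reads taken as the limit of detection. Psma3 and Psma5 encode alpha subunits and Psmb5 the chymotrypsin-like cutting subunit, and the groups were not compared for them. The other 32 genes passed the filter on low counts in every comparison. Levels of different genes are not set against each other, because each amplicon amplifies with its own efficiency.

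Between the tissues of Rosa26 mice, subunits of the 19S cap were lower in aorta than in muscle, and 2 interferon-inducible genes were higher. Of 32 genes, 21 fell and 2 rose in aorta over muscle by the edgeR quasi-likelihood test at an adjusted p under 0.05, which is 65.6% and 6.25%, while 27.5% of all 11058 genes tested fell and 31% rose. Groups did not overlap for 19 genes lower in aorta (59.4%) and 1 higher (3.12%), against 26% and 26.9% of all genes. The median log2 fold change was −0.86 over the 32 genes and 0.08 over all genes. Without the 5 libraries with the most unmapped reads, 21 fell and 2 rose, against 6374 of 11683 genes called in either direction. All 6 base ATPases fell, with a median of −1.61, and so did the 3 other base subunits, with a median of −1.69. In the lid 6 of 8 subunits fell (median −1.11), in the alpha ring 2 of 5 (−0.53) and among the structural beta subunits 1 of 4 (−0.39).

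The base ATPases Psmc2 and Psmc3 use ATP to unfold the substrate and thread it into the core. Psmc3 stood at 95.2 and 116 CPM in aorta dNdK against 325, 330 and 406 CPM in muscle dNdK, and at 100, 128, 115 and 117 CPM in aorta Rosa26 against 375, 377, 466 and 380 CPM in muscle Rosa26. Every aorta library was below every muscle library. The level was 3.27-fold lower in aorta in dNdK mice (log2 fold change −1.71, SE 0.31, edgeR adjusted p = 0.0191) and 3.47-fold lower in Rosa26 mice (−1.79, SE 0.18, adjusted p = 1.53e-05). Psmc2 stood at 39.2 and 63.1 CPM in aorta dNdK against 175, 151 and 167 CPM in muscle dNdK, a log2 fold change of −1.65 (SE 0.32, edgeR adjusted p = 0.0237). Rosa26 mice had 53.7, 68.6, 34.7 and 42.5 CPM of it in aorta against 131, 162, 187 and 170 CPM in muscle (−1.71, SE 0.23, adjusted p = 0.000138). The remaining ATPases lay between −1.63 (Psmc1) and −0.97 (Psmc4) in Rosa26 mice.

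Psmd1 and Psmd2 are the large scaffold subunits of the base. Psmd1 stood at 48.8 and 59.6 CPM in aorta dNdK and at 154, 175 and 230 CPM in muscle dNdK (log2 fold change −1.74, SE 0.31, edgeR adjusted p = 0.0186). Its Rosa26 values were 52.2, 62.4, 46.5 and 72.8 CPM in aorta and 228, 183, 189 and 236 CPM in muscle (−1.84, SE 0.20, adjusted p = 2.82e-05). Again the tissues did not overlap. Psmd2 had 130 and 146 CPM in aorta dNdK and 508, 503 and 414 CPM in muscle dNdK, and 154, 145, 126 and 153 CPM in aorta Rosa26 and 469, 465, 447 and 490 CPM in muscle Rosa26. It was 3.37-fold lower in aorta in dNdK mice (edgeR adjusted p = 0.0198) and 3.23-fold lower in Rosa26 mice (adjusted p = 1.36e-05).

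In the lid, Psmd7, the partner of the deubiquitinase Psmd14, had the largest drop of the 32 genes in Rosa26 mice. It stood at 160 and 154 CPM in aorta dNdK and at 411, 459 and 423 CPM in muscle dNdK (log2 fold change −1.42, SE 0.29, edgeR adjusted p = 0.0276). In Rosa26 mice it had 141, 143, 112 and 167 CPM in aorta and 610, 488, 551 and 514 CPM in muscle, 3.83-fold lower in aorta (−1.94, SE 0.19, adjusted p = 1.31e-05). Psmd6, a lid scaffold subunit, had the largest drop of the 32 in dNdK mice, with 71.7 and 75.3 CPM in aorta against 352, 269 and 272 CPM in muscle (−1.99, SE 0.32, edgeR adjusted p = 0.0136). Aorta Rosa26 had 95.6, 60.5, 79.9 and 80.5 CPM of it against 318, 255, 256 and 283 CPM in muscle Rosa26 (−1.81, SE 0.20, adjusted p = 2.66e-05). Psmd11, another lid scaffold subunit, had 97.2 and 128 CPM in aorta dNdK and 132, 298 and 248 CPM in muscle dNdK (−0.97, SE 0.41, adjusted p = 0.15). It stood at 96.8, 77.6, 29.4 and 52.6 CPM in aorta Rosa26 and at 155, 312, 306 and 191 CPM in muscle Rosa26 (−1.92, SE 0.37, adjusted p = 0.00123). Its lower values within each Rosa26 group were in the libraries with the most unmapped reads, and without them the difference was −1.87 (adjusted p = 8.53e-05). In dNdK mice its lowest muscle value was that of muscle dNdK 1, and without that library the difference was −1.23 (edgeR adjusted p = 0.0565). The lid subunits Psmd8 and Psmd14 did not pass in Rosa26 mice, at −0.33 and −0.35.

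**Figure D2:**
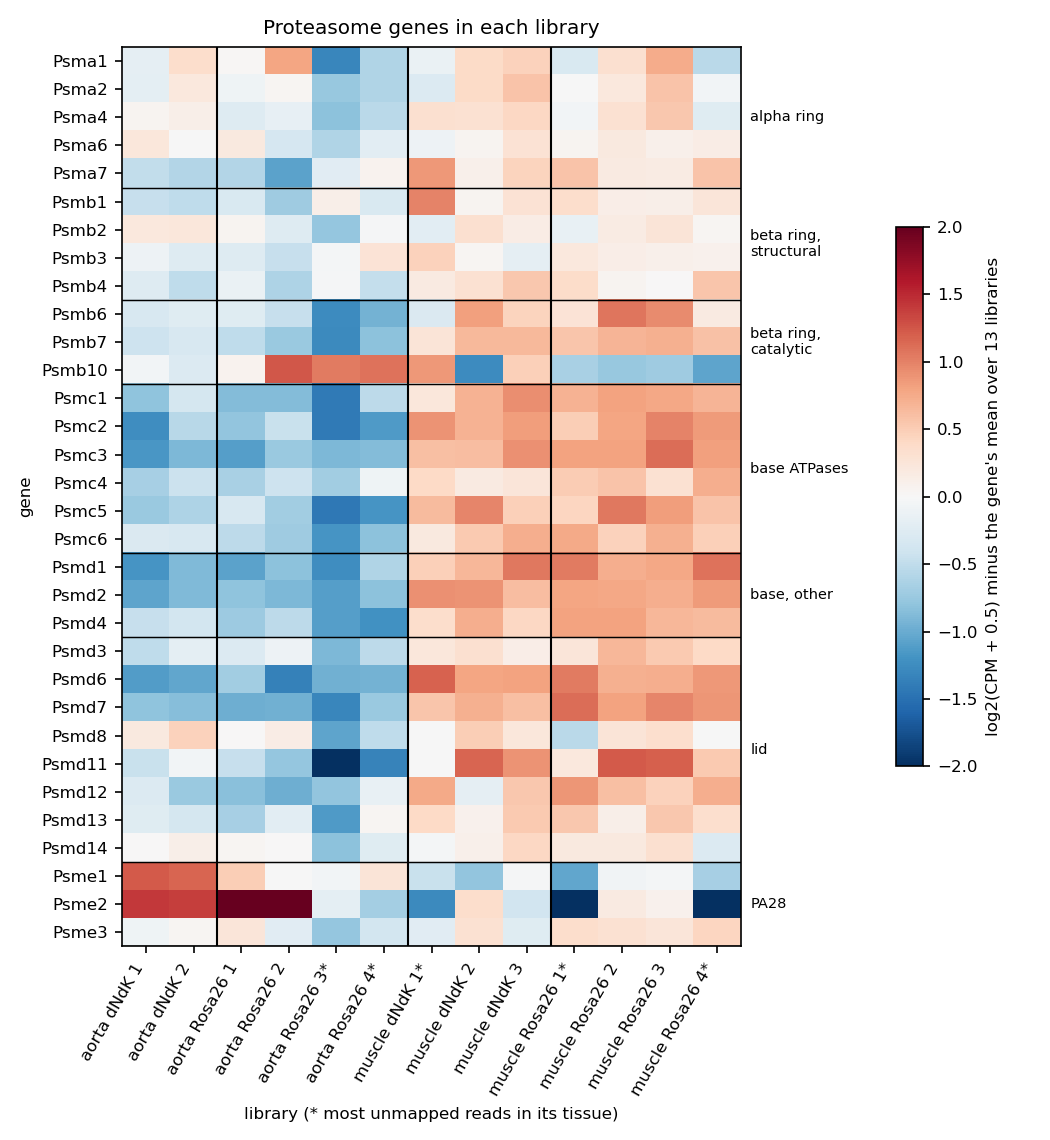
Level of 32 proteasome genes (rows, grouped by role) in the 13 libraries (columns, with an asterisk for the libraries with the most unmapped reads), as log2(CPM + 0.5) minus the gene's mean over the libraries. The base subunits are below their mean in the aorta libraries and above it in the muscle libraries, with Psmc3 at 100 to 128 CPM in aorta Rosa26 and 375 to 466 CPM in muscle Rosa26.

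Set against the core in the same library, a measure in which the scaling cancels, the base subunits were lower in aorta. The mean log2 level of 9 base subunits minus that of 9 alpha and structural beta subunits, centred over the 13 libraries, was −0.71 and −0.49 in aorta dNdK and −0.67 to −0.37 in aorta Rosa26, against 0.29 to 0.44 in muscle dNdK and 0.48 to 0.66 in muscle Rosa26. The aorta and muscle libraries did not overlap. As a difference of median log2 fold changes, base minus alpha and structural beta, it was −1.14 in dNdK mice and −1.15 in Rosa26 mice. With library size alone as the scaling, the median of all genes moved to 0.96 and that of the 32 genes to 0.01 in Rosa26 mice. The counts became 6 higher and 13 lower, against 7552 of 11058 genes called in either direction. Under that scaling the 9 base subunits still had lower estimates in aorta, whereas the 5 alpha and 4 structural beta subunits had higher ones. A change of scaling shifts all genes alike, and the median of the 32 genes minus that of all genes was −0.94 with TMM. The 7 fast-fibre markers summed to 8.265 to 14.41 CPM in aorta and 172300 to 271600 CPM in muscle, and their part in the scaling was not tested.

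In dNdK mice, which share no library with the Rosa26 comparison, 7 genes fell and 1 rose in aorta over muscle. These are 21.9% and 3.12% of the 32 genes, against 10.5% and 5.22% of 11426 genes. Groups did not overlap for 20 genes lower in aorta (62.5%) and 2 higher (6.25%), against 30.2% and 27.5% of all genes. The 7 that fell were Psmc2, Psmc3, Psmc5, Psmd1, Psmd2, Psmd6 and Psmd7, and all 7 were among the 21 that fell in Rosa26 mice, 100% of the shorter list and 33.3% of the longer. Of those 21, 20 had lower estimates in dNdK mice. The matching overlap over all genes was not counted, so these shares do not set the 32 genes apart from other genes. The median log2 fold change was −0.73 over the 32 genes and −0.01 over all genes. Without aorta dNdK 1 or 2, fits that keep 1 library of that group, this median was −0.74 and −0.70. The calls rest on both aorta dNdK libraries. The count of called genes among the 32 fell to 2 without muscle dNdK 2, where 690 of 11203 genes were called. By the DESeq2 Wald test it was 15, against 3141 of 11426 genes. Without muscle dNdK 1, the 1 dNdK library among the 5, 8 genes fell and 2 rose, against 1688 of 11285 genes called in either direction. The same animals may have given aorta and muscle, as 4 numbers in the deposited names occur in both tissues.

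**Figure D3:**
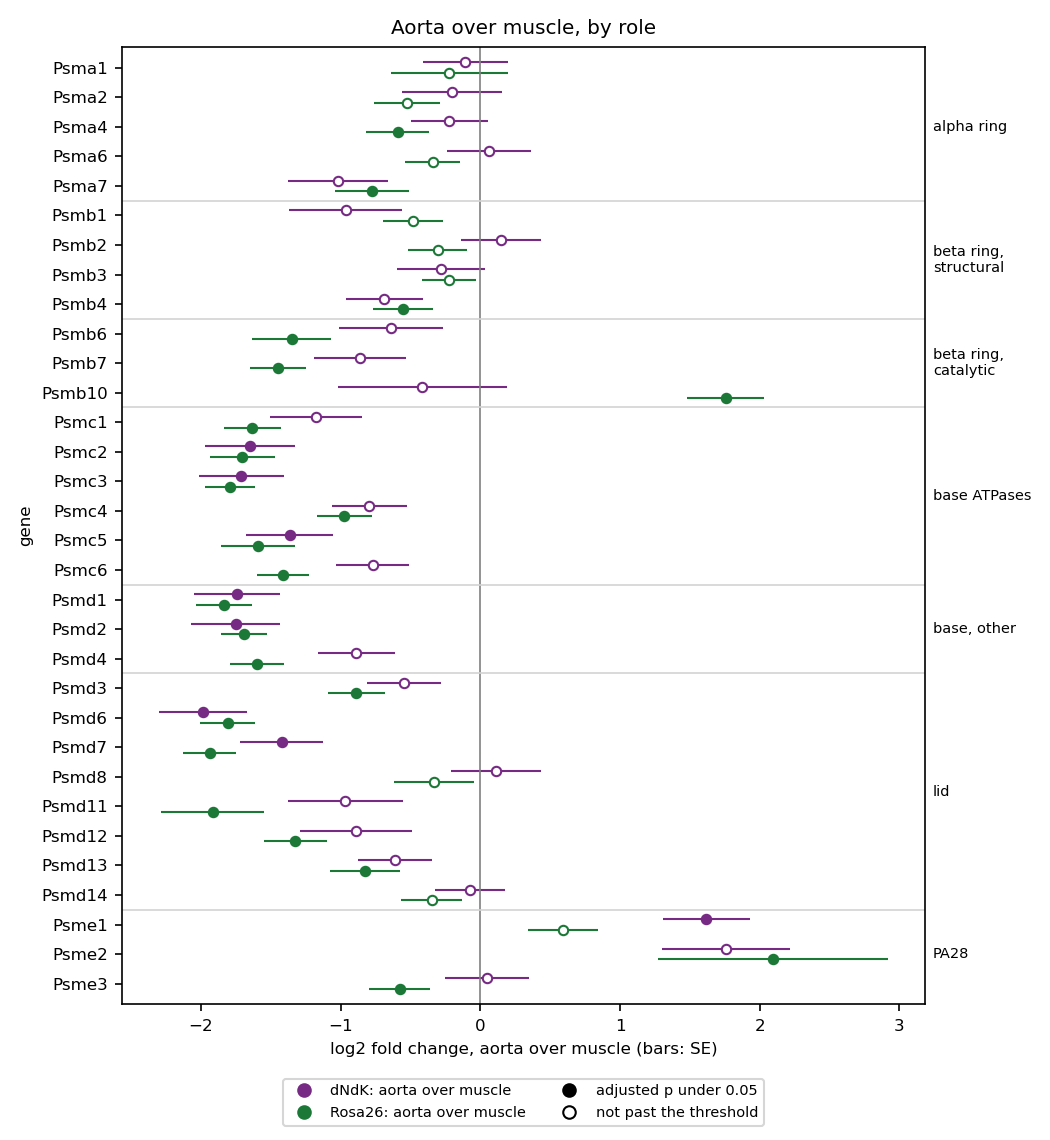
Log2 fold change of aorta over muscle (x axis, bars are SE) for 32 proteasome genes grouped by role (y axis), in dNdK mice and in Rosa26 mice, with filled points for an adjusted p under 0.05. Base subunits lie to the left of zero in both genotypes, with medians of −1.27 and −1.61 for the ATPases in dNdK and Rosa26 mice, while Psme1, Psme2 and, in Rosa26 mice, Psmb10 lie to the right.

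The constitutive cutting subunits moved with the cap in Rosa26 mice. Psmb7, the trypsin-like subunit, stood at 438 and 466 CPM in aorta dNdK and 701, 918 and 912 CPM in muscle dNdK, where the log2 difference of −0.86 did not pass (SE 0.33, edgeR adjusted p = 0.121). It stood at 408, 349, 242 and 329 CPM in aorta Rosa26 and at 854, 934, 951 and 877 CPM in muscle Rosa26, 2.73-fold lower in aorta (−1.45, SE 0.20, adjusted p = 0.000147). Psmb6, the caspase-like subunit, stood at 98 and 103 CPM in aorta dNdK and at 100, 216 and 167 CPM in muscle dNdK (−0.64, SE 0.37, edgeR adjusted p = 0.267), and these groups overlapped. In Rosa26 mice they did not, with 103, 88.8, 51.1 and 63.5 CPM in aorta and 148, 259, 235 and 139 CPM in muscle (−1.35, SE 0.28, adjusted p = 0.00204). Without the libraries with the most unmapped reads Psmb6 was at −1.41 in Rosa26 mice (edgeR adjusted p = 0.000371). In dNdK mice the muscle value of 100 CPM was that of muscle dNdK 1, and without that library Psmb6 was at −0.88 (adjusted p = 0.091).

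The inducible counterpart of Psmb7 went the other way in Rosa26 mice. Psmb10 stood at 20 and 17.1 CPM in aorta dNdK and at 38.3, 8.45 and 29.1 CPM in muscle dNdK, a log2 difference of −0.42 that did not pass (SE 0.61, edgeR adjusted p = 0.667). It stood at 21.8, 49.7, 43.5 and 44.6 CPM in aorta Rosa26 and at 13.1, 12.1, 12.5 and 9.75 CPM in muscle Rosa26, with no overlap. In Rosa26 mice it was 3.37-fold higher in aorta (1.76, SE 0.27, adjusted p = 0.000332), and it was called in 21 of 21 alternative settings. Its inducible partners outside the 35 genes, Psmb8 and Psmb9, were 4.38-fold and 5.51-fold higher in aorta Rosa26 than in muscle Rosa26 (edgeR adjusted p = 0.000683 and 0.00128). In dNdK mice their log2 differences were −0.39 and −0.61 and did not pass. Of 13 tested interferon-response genes, which include Psmb8 and Psmb9, 11 rose in aorta Rosa26 over muscle Rosa26, where 31% of all genes rose. So did 7 of 7 macrophage, 6 of 6 endothelial, 5 of 5 tested B cell and 4 of 4 tested T cell markers, with median log2 fold changes of 1.77, 1.81, 4.18 and 4.48. Of 7 brown fat markers 6 rose (median 3.60), and of 7 fat cell markers 6 rose and 1 fell (median 4.80). Their part in the Psmb10 difference was not tested.

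As a ratio within a library, which does not depend on depth or scaling, Psmb10 had 4.57 and 3.67 reads per 100 of Psmb7 in aorta dNdK and 5.34, 14.2, 18 and 13.6 in aorta Rosa26. It had 5.47, 0.927 and 3.19 in muscle dNdK and 1.54, 1.3, 1.32 and 1.12 in muscle Rosa26. The first strand held 20.3% to 43.5% of Psmb7 reads in the 5 libraries with the most unmapped reads and 44.6% to 49.5% in the other 8. The part of this difference in the ratio was not tested. The ratio compares the groups and not the abundance of the proteins. It was 8.9-fold higher in aorta Rosa26 than in muscle Rosa26 (log2 difference 3.15, exact 2-sided permutation test p = 0.0286, the smallest that 4 against 4 libraries can give, and 0.114 adjusted over the 4 comparisons). For aorta dNdK over aorta Rosa26 the log2 difference was −1.51, with no overlap (exact permutation p = 0.0667, the smallest possible, adjusted 0.133). Muscle dNdK lay 0.95 above muscle Rosa26 with overlap (exact permutation p = 0.257, adjusted 0.343), and aorta dNdK lay 0.70 above muscle dNdK (exact permutation p = 0.8).

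The PA28 genes Psme1 and Psme2 encode the interferon-induced cap that opens the core without ATP. Psme1 lies at chr14:55578494-55581527 and Psme2 at chr14:55587440-55591101 (GRCm38.p6). Of the 35 genes, 29 matched an entry of the RefSeq promoter table, which holds 250 bases before and 50 after a gene's start. The interferon-stimulated response element core, GAAA, any 2 bases and GAAA on either strand, was found for 3 of 29 genes (10.3%: Psmb3, Psmd4 and Psme1), against 3.99% of 27025 genes. The antioxidant response element core, TGACNNNGC, was found for 4 (13.8%: Psmb5, Psmb6, Psmc6 and Psmd12), against 14% of genes, and CCAAT for 11 (37.9%), against 41.1%. Promoters are shown for Psme1 (chr14:55578244-55578543, plus strand), for its neighbour Psme2 (chr14:55591052-55591351, minus strand, the first of 2 listed starts), and for the base subunits Psmc2 (chr5:21785025-21785324, plus strand, also the first of 2) and Psmd1 (chr1:86064369-86064668, plus strand), which were lower in aorta, with capitals for matches to any of these motifs. The match in Psme1 is to the interferon motif on the reverse strand and begins at base 10 after the start, and that in Psmc2 is CCAAT, 28 bases before it.
Psme1: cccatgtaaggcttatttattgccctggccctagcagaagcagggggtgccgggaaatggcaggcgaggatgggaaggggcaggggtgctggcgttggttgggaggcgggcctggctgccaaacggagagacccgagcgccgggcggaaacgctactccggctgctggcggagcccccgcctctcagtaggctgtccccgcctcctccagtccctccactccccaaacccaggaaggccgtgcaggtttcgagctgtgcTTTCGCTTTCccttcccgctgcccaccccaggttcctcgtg
Psme2: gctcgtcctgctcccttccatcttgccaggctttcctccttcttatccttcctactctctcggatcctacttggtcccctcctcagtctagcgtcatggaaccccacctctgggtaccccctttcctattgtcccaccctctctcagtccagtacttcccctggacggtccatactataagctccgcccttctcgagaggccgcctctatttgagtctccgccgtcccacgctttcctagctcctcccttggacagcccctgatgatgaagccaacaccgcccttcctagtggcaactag
Psmc2: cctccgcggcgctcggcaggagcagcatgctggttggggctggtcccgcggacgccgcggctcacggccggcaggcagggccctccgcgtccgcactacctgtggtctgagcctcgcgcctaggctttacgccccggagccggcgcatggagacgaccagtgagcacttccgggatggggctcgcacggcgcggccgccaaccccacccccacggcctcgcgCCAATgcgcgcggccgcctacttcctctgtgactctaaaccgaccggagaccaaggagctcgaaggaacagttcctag
Psmd1: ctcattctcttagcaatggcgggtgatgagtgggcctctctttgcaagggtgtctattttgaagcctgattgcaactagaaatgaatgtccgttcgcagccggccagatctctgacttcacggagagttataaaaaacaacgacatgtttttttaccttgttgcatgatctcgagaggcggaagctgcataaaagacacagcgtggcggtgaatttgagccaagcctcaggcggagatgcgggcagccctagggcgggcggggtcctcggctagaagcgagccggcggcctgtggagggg
A match in these letters is a description and no binding was measured.

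Psme1 stood at 268 and 257 CPM in aorta dNdK, at 162, 114, 111 and 138 CPM in aorta Rosa26, at 84.2, 66.4 and 113 CPM in muscle dNdK and at 55.8, 109, 112 and 72 CPM in muscle Rosa26. Both aorta dNdK libraries were above every other library. Between the tissues it was 3.07-fold higher in aorta in dNdK mice (log2 fold change 1.62, SE 0.31, edgeR adjusted p = 0.0227), while in Rosa26 mice the log2 difference of 0.59 did not pass (SE 0.25, adjusted p = 0.0647). The dNdK call was lost without aorta dNdK 1 (edgeR adjusted p = 0.149), aorta dNdK 2 (0.133) or muscle dNdK 2 (0.0688), and on either strand alone (0.0758 and 0.176).

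Psme2 stood at 44.7 and 43.8 CPM in aorta dNdK and at 76.6, 77.9, 14.4 and 10.1 CPM in aorta Rosa26. It stood at 6.51, 21.1 and 12.5 CPM in muscle dNdK and at 1.87, 18.8, 17.6 and 2.75 CPM in muscle Rosa26. The low values of each Rosa26 group were those of the libraries with the most unmapped reads. It was 4.28-fold higher in aorta than in muscle in Rosa26 mice (log2 fold change 2.10, SE 0.83, edgeR adjusted p = 0.0486), although the groups overlapped. The edgeR adjusted p was 4.85e-05 without the libraries with the most unmapped reads and 0.122 without aorta Rosa26 1 or 2. It was 0.101 without muscle Rosa26 1, 0.0523 without muscle Rosa26 3 and 0.111 without muscle Rosa26 4. Without both aorta libraries that held heart RNA it was 0.821 (log2 fold change 0.23), in a fit that keeps aorta Rosa26 3 and 4, those with the most unmapped reads. In dNdK mice the Psme2 log2 fold change of 1.76 did not pass (SE 0.46, adjusted p = 0.0504), with no overlap, and it was 1.45 without muscle dNdK 1 (adjusted p = 0.0475). Psme2b, a near-identical copy, had 0 to 9 reads. Reads that match both copies would be among the multimapping reads, which are in the count of neither gene, and their number is not known. Psme3 stood at 173 and 188 CPM in aorta dNdK and 156, 226 and 154 CPM in muscle dNdK (log2 fold change 0.05, SE 0.30). It stood at 217, 156, 106 and 141 CPM in aorta Rosa26 and at 234, 226, 216 and 247 CPM in muscle Rosa26, where it fell in aorta (−0.58, edgeR adjusted p = 0.0399), although the groups overlapped. Without the libraries with the most unmapped reads Psme3 was at −0.29 in Rosa26 mice and did not pass (edgeR adjusted p = 0.283).

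**Figure D4:**
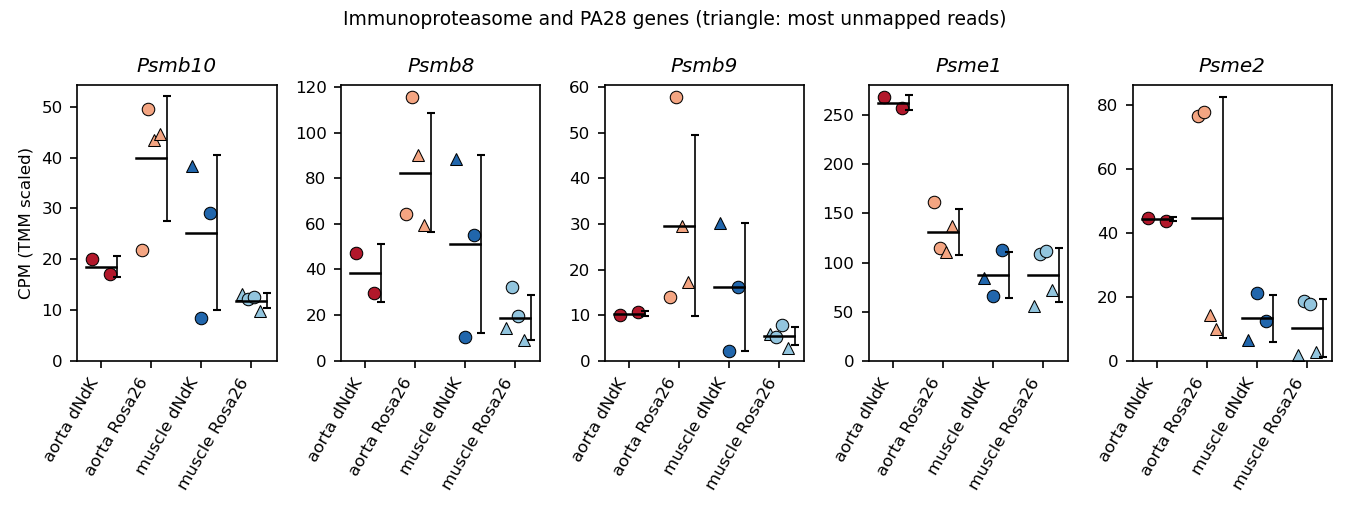
Level (y axis, CPM, linear from 0) of Psmb10, Psmb8, Psmb9, Psme1 and Psme2 in each library of the 4 groups (x axis), with triangles for the libraries with the most unmapped reads, lines for group means and bars for SD. Psme1 lies at 257 and 268 CPM in aorta dNdK and at most 162 CPM elsewhere, and Psme2 is low in the triangles of both Rosa26 groups.

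In aorta, no proteasome gene differed between dNdK and Rosa26 mice at an adjusted p under 0.05. By the edgeR quasi-likelihood test 0 of 32 genes rose and 0 fell, against 0.00839% (1 of 11920) and 0% of all genes, and 2 of 32 had an unadjusted p under 0.05, against 713 of all genes. The DESeq2 Wald test also called 0 of the 32, against 13 of 11920 genes. The median log2 fold change was 0.19, with 22 higher and 10 lower estimates, against −0.05 for all genes. Groups did not overlap for 8 genes higher in dNdK (25%) and 1 lower (3.12%), against 7.73% and 9.51% of all genes. The 8 were Psma4, Psmb2, Psmb7, Psmc6, Psmd4, Psmd8, Psmd11 and Psme1. Of these, Psma4, Psmb7, Psmc6, Psmd4, Psmd8 and Psmd11 were each lower in aorta Rosa26 3 and 4 than in aorta Rosa26 1 and 2. The median was 0.10 without aorta Rosa26 3 and 4, which are both of 1 genotype. It was 0.39 without the aortas with heart RNA, a fit of aorta dNdK 1 alone against aorta Rosa26 3 and 4. The median was 0.06 with library size alone, and between 0.09 (without aorta Rosa26 3) and 0.29 (without aorta Rosa26 1) with 1 library left out. Without aorta Rosa26 3 and 4, Psmd8 and Psmd11 were at 0.29 and 0.41, in place of 0.64 and 0.84, and Psme2 at −0.76, in place of 0.01, and none passed.

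The 2 of 32 genes with an unadjusted p under 0.05 by edgeR were a share close to that of all genes, 713 of 11920. Their number thus does not set the proteasome genes apart from other genes. These 2 genes, Psme1 and Psmb10, are both interferon-inducible, and their estimates had opposite signs. Psme1 averaged 263 ± 7.78 CPM in aorta dNdK (n = 2) and 131 ± 23.7 CPM in aorta Rosa26 (SD, n = 4), a log2 fold change of 1.03 (SE 0.23, edgeR adjusted p = 0.757). On the second strand it had 116 and 122 CPM in aorta dNdK and 30.2, 4.15, 23.3 and 20.8 CPM in aorta Rosa26. On the first strand it had 153 and 135 CPM in aorta dNdK and 132, 110, 87.6 and 117 CPM in aorta Rosa26. The difference thus lay mainly on the second strand, with log2 fold changes of 2.66 there and 0.41 on the first. The same strand was nearly empty in muscle dNdK 1 and 2, at 7.85 and 1.64 CPM, and held 51.9 CPM in muscle dNdK 3, so low second-strand values occurred in both genotypes. Psmb10 averaged 18.5 ± 2.09 CPM in aorta dNdK and 39.9 ± 12.4 CPM in aorta Rosa26, a log2 fold change of −1.08 (SE 0.37, edgeR adjusted p = 0.757) without overlap.

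Psmb8 and the interferon-response list had the same sign as Psmb10 in aorta. Psmb8 had 47.4 and 29.5 CPM in aorta dNdK and 64.2, 116, 90.2 and 59.3 CPM in aorta Rosa26 (log2 fold change −1.07, adjusted p = 0.757), with no overlap. All 13 tested genes of the interferon-response list, Psmb8 and Psmb9 among them, had lower estimates in dNdK (0 called, median −1.03), and the list's summed level was 274 and 219 CPM in aorta dNdK and 281 to 607 CPM in aorta Rosa26. The summed level of 7 B cell markers was 58.1 and 23.6 CPM in aorta dNdK and 11.4 to 339 CPM in aorta Rosa26, and that of 7 macrophage markers was 210 to 248.9 CPM in aorta dNdK and 262 to 565 CPM in aorta Rosa26. The part of cell make-up in these estimates was not tested. The alpha subunit Psma4 had 267 and 279 CPM in aorta dNdK and 215, 229, 145 and 177 CPM in aorta Rosa26 (0.54, SE 0.24, adjusted p = 0.757).

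In muscle no proteasome gene passed the test between the genotypes either. Of the 32 genes 0 rose and 0 fell by the edgeR quasi-likelihood test and by the DESeq2 Wald test, against 0% and 0% of 10491 genes by edgeR and 7 genes by DESeq2. By edgeR 1 of 32 had an unadjusted p under 0.05, against 792 of all genes. Estimates were higher for 16 genes and lower for 16, with a median of 0.01 against 0.03 for all genes, and of −0.05 without the libraries with the most unmapped reads. Groups did not overlap for 0 genes higher and 1 lower (3.12%), against 2.72% and 3.27% of all genes. That gene was Psmd7, with 411, 459 and 423 CPM in muscle dNdK and 610, 488, 551 and 514 CPM in muscle Rosa26 (log2 fold change −0.30, SE 0.18, adjusted p = 0.719). Psme3 was at −0.35 (SE 0.20, adjusted p = 0.713). Every base ATPase estimate lay between −0.23 and 0.04.

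Psmb10 had 38.3, 8.45 and 29.1 CPM in muscle dNdK and 13.1, 12.1, 12.5 and 9.75 CPM in muscle Rosa26, a log2 fold change of 1.12 (SE 0.44, edgeR adjusted p = 0.656). Muscle dNdK 1 and 3 were above every Rosa26 library and muscle dNdK 2 below them. Without dNdK 1 and 3 the estimate was −0.49, a sign fixed by the low value of muscle dNdK 2, the 1 library left. Psmb9 likewise was above every Rosa26 library in muscle dNdK 1 and 3 and below them in muscle dNdK 2, with 30.2, 2.23 and 16.3 CPM in muscle dNdK and 5.79, 5.14, 7.76 and 2.88 CPM in muscle Rosa26 (1.62, adjusted p = 0.656). The summed B cell markers were 111, 2.93 and 13.7 CPM in muscle dNdK 1 to 3 and 2.49 to 20 CPM in muscle Rosa26, and the interferon-response list summed to 449, 94.5 and 183 CPM in muscle dNdK and 57 to 159 CPM in muscle Rosa26. Muscle dNdK 3 was also the library with fat RNA. Their part in the Psmb10 values was not tested. Psmd12, a lid subunit, had 14.5 CPM on the first strand in muscle dNdK 2, against 157 to 187 CPM in the other 6 muscle libraries, while its second strand held 191 CPM.

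**Figure D5:**
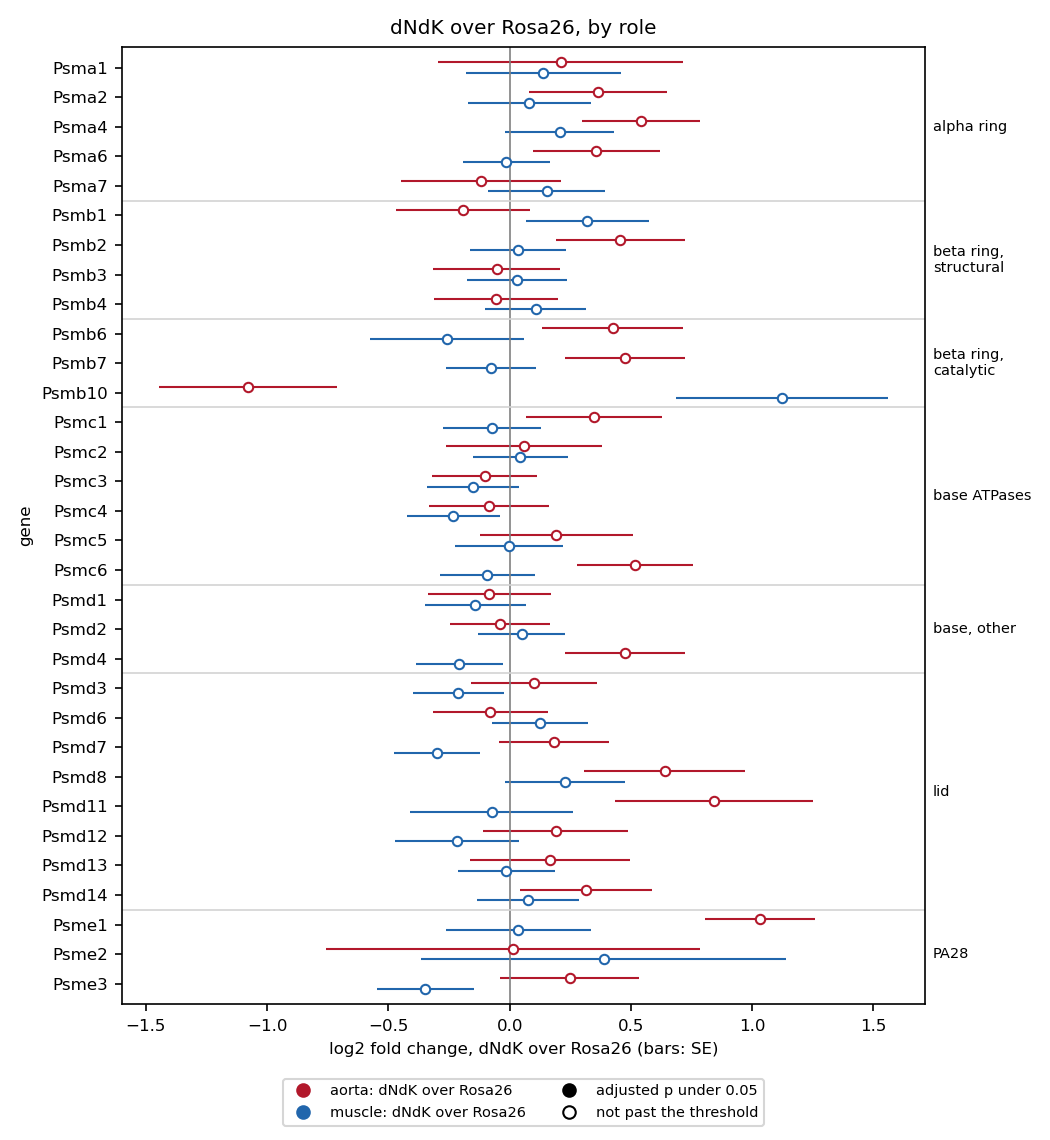
Log2 fold change of dNdK over Rosa26 (x axis, bars are SE) for 32 proteasome genes grouped by role (y axis), in aorta and in muscle, with open points for genes that did not pass the adjusted p of 0.05. All points are open, and Psmb10 lies at −1.08 in aorta and at 1.12 in muscle.

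Whether the genotype effect itself differed between the tissues was tested over all 13 libraries with an interaction term. By edgeR 0 of 32 genes passed in either direction, against 0% and 0% of 12318 genes, and 4 of 32 had an unadjusted p under 0.05, against 1044 of all genes. DESeq2 also called 0 of the 32, against 6 of 12318 genes. Psmb10 had the smallest p, at −2.17 for the effect in aorta minus that in muscle (SE 0.63, adjusted p = 0.583). Psme1 was at 1.02 and Psmd4, the ubiquitin receptor of the base, at 0.71, with the same adjusted p, and Psmb9 outside the 35 genes was at −3.07. The median over the 32 genes was 0.29, against −0.10 for all genes, and it was −0.01 with library size alone and 0.22 without the libraries with the most unmapped reads.

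Other genes of the pathway were read from lists of regulators, assembly factors and factors that control subunit transcription. In dNdK mice 2 of 8 tested regulators and 1 of 6 factors of subunit transcription fell in aorta over muscle, where 10.5% of all genes fell. In Rosa26 mice 3 of 8 tested regulators fell in aorta over muscle and 0 rose, 4 of 6 transcription factors and their processing enzymes fell and 1 rose, 1 of 3 assembly chaperones fell and 1 rose, and both tested immunoproteasome subunits rose, where 27.5% of all genes fell and 31% rose. Psme4, which encodes the PA200 activator cap, had the largest drop of these lists in both genotypes. It averaged 81.5 ± 15.6 CPM in aorta dNdK (SD, n = 2) and 361 ± 149 CPM in muscle dNdK (n = 3), a log2 fold change of −2.11 (edgeR adjusted p = 0.0284). Its Rosa26 averages were 52.9 ± 16 CPM in aorta and 405 ± 57.5 CPM in muscle (SD, n = 4 each), a log2 fold change of −2.94 (edgeR adjusted p = 5.11e-06). Ecpas, a proteasome adaptor and scaffold, had log2 fold changes of −1.93 in dNdK mice (adjusted p = 0.0281) and −2.72 in Rosa26 mice (adjusted p = 6.69e-06). Ddi2, the protease that activates the transcription factor Nfe2l1, was at −2.03 in dNdK mice (adjusted p = 0.0291) and −1.82 in Rosa26 mice (adjusted p = 7.73e-05). The dNdK calls of Psme4, Ecpas and Ddi2 were each lost without aorta dNdK 1 (adjusted p = 0.21, 0.193 and 0.18), aorta dNdK 2 (0.16, 0.191 and 0.201) or muscle dNdK 2 (0.0561, 0.0636 and 0.0746) by edgeR. Nfe2l1, which drives proteasome subunit genes when the proteasome is impaired, averaged 464 ± 37.6 CPM in aorta dNdK and 814 ± 284 CPM in muscle dNdK (−0.77, adjusted p = 0.234), and 368 ± 37 CPM in aorta Rosa26 and 985 ± 83.6 CPM in muscle Rosa26 (−1.42, adjusted p = 7.8e-05). It was named after its values were seen. Between genotypes 0 genes of these lists passed in either tissue.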

How the data were processed

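The 13 deposited tables hold STAR gene counts on amplicon reads, with a column for reads on either strand and one for each strand, and the authors deposited them as raw counts. The submitters' processing notes name STAR 2.5.2b, edgeR 3.28.1, limma 3.42.2 and the builds mm10 and GRCm38.p6. The unstranded counts of 19838 genes were used, and the rows for unmapped, multimapping, featureless and ambiguous reads stayed out of library sizes. Genes were filtered with filterByExpr (minimum count 10, minimum total 15), scaled by TMM and tested with edgeR's quasi-likelihood test (edgeR 4.0.16, R 4.3.3) over all genes, with Benjamini-Hochberg adjustment and a threshold of 0.05. DESeq2 1.42.0 served as an alternative, beside other scalings, filters, strands, left-out libraries and blocks. The ratio of Psmb10 to Psmb7 added 0.5 to each count and used exact permutation tests. Scripts were tested on simulated data.

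The 35 genes and the lists were chosen with earlier results of these data known. Named with values were the cutting and PA28 genes, up to 6 of the 35 in each direction with the largest change past the threshold, the 3 lowest p-values in comparisons with under 3 such genes, and up to 4 other pathway genes, or 1. Psma2, Psmd8, Psmd12 and Nfe2l1 were named after their values were seen. The labels do not say that replicates came from separate animals, so p-values measure the spread between these libraries. Without molecular identifiers reads are not independent molecules, so the floor of 3 counts covers counting error only. No replicate pair was a duplicate: the lowest chi-square per degree of freedom was 21. Numbers in the titles did not pair the libraries (correlations of deviations from −0.36 to 0.30). Numbers in the deposited names, shared by an aorta and a muscle library, had correlations of 0.30, 0.31, 0.26 and 0.15, the last for a dNdK pair. The pair at 0.26 also shared its title number. Each pair lay wholly inside or wholly outside the 5 libraries with the most unmapped reads, so pairing and that split cannot be told apart here. The numbers in the deposited names were used as a block for aorta over muscle in Rosa26 mice alone.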

Additional observations from a re-analysis of the deposited data

Results flagged for a closer look

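Psmc3, a base ATPase, stood at 466 CPM in muscle Rosa26 3, far from the other 3 muscle Rosa26 libraries at 375 to 380 CPM. The gap took 0.939 of the range of the group. It was the 1 such value among 64 pairs of a gene and a group of 4 libraries, and the rule by its construction marks about 1 in 20 groups by chance, a higher rate than was found here.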

How the results depend on the processing

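Between the genotypes and for the interaction, 0 of the 32 genes passed in any setting run. The muscle genotype median ranged with 1 library left out, with −0.106 and 0.0419 as the ends and the lowest without muscle dNdK 3. For aorta over muscle in Rosa26 mice the median was 0.00975 with library size alone and −0.605 with upper quartile scaling, and base minus core was −1.29 without the aortas with heart RNA. In dNdK mice the count of called genes was 4 with library size alone, 15 by DESeq2, 5 on the first strand, 0 without the aorta with heart RNA, 16 without muscle dNdK 1 and 3, and 0 to 10 with 1 library left out. The number of all genes called in dNdK mice also varied with the setting. It was 2312 of 11426 with library size alone, 3141 of 11426 by DESeq2 and 1145 of 10507 on the first strand. The counts among the 32 genes are thus not a property of these genes alone. The median in dNdK mice was −0.154 with library size alone and −0.528 with upper quartile scaling. It was −0.646 on the second strand and −0.753 to −0.649 with 1 library left out. Base minus core there was −0.899 on the first strand, −1.02 without the aorta with heart RNA, −1.29 without muscle dNdK 1 and 3, and −1.28 to −0.975 with 1 library left out. The interaction median was −0.0128 with library size alone, 0.123 on the first strand and 0.451 without the aortas with heart RNA. The ratio of Psmb10 to Psmb7 for aorta dNdK over muscle dNdK was −0.0286 to 1.25 with 1 library left out, changing sign without muscle dNdK 2. Without muscle dNdK 1 and 3, the muscle genotype estimates of Psmb10 and Psmb9 changed sign, to −0.486 and −1.27, as set by muscle dNdK 2, the 1 library left and the lowest for both genes. Of the other values for named genes, 628 kept their direction and side of the threshold and 58 lost their call. The cause was not tested. Where a group kept 1 library, it was assumed to vary like the other group.

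With a replicate block on the title numbers, aorta over muscle in dNdK mice had a median of −0.635 and base minus core of −1.27. That block gave 0 of the 32 genes for aorta genotype, with 163 of all genes called. Between the tissues of Rosa26 mice it gave 2 higher and 18 lower, with 5879 of 11058 genes called. The paired fit on the numbers in the deposited names gave 3 higher and 20 lower there, with 6186 of 11058 genes called. Genes under 10 reads in every library, 6712 of 19838, are limited by depth.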
